A study of Mus musculus with 1931 samples.

Results

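The insulin-like growth factor (IGF) axis was examined in RtL-embryoids, aggregates of 3 embryonic stem cell (ESC) lines that were converted by inducible transgenes into the lineages of the early mouse embryo. Its 10 members were taken by name: the growth factor gene Igf2, the non-coding RNA gene H19, the receptor genes Igf2r, Igf1r and Insr, the binding protein genes Igfbp2, Igfbp3 and Igfbp4, and the RNA-binding protein genes Igf2bp1 and Igf2bp3. All 10 were found among the 20999 genes of the deposited table, and they were followed in the 1406 cells that had at least 2500 genes above 0.

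IGF2 is a secreted growth factor that drives growth of the embryo and placenta through the IGF1 receptor and a form of the insulin receptor. The cation-independent mannose 6-phosphate receptor, encoded by Igf2r, binds IGF2 and carries it to the lysosome. Igf2 and H19 are neighbours under shared enhancers and are imprinted in opposite ways, Igf2 being read from the paternal and H19 from the maternal chromosome, while Igf2r is read mainly from the maternal copy.

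Cells had been sorted singly into plates and sequenced by SMART-seq2, a full-length cDNA method without molecular identifiers. The 3D cells came from 1 pool of RtL-embryoids spread over plates 3, 4 and 5. Within it, Kermit ESCs with GFP under the Oct3/4 promoter gave epiblast-like (Epi) cells, and iGATA6 ESCs with mCherry and a doxycycline-inducible Gata6 transgene gave visceral endoderm-like (VE) cells. The 5-Factor ESCs with doxycycline-inducible Cdx2, Tfap2c, Eomes, Gata3 and Ets2 gave extraembryonic ectoderm-like (ExE) cells. All 3D cells, the Kermit cells included, had been in doxycycline at 2 µg/ml, as had the 2D induced trophoblast stem cells (iTSC) and induced extraembryonic endoderm cells (iXEN), whereas the ESCs were kept in 2i/LIF without it. Each 2D group was 1 culture on a plate of its own. The ESCs were Kermit cells, iTSC came from 5-Factor ESCs and iXEN from iGATA6 ESCs with mCherry. The iTSC medium held FGF4 and heparin and was partly conditioned by feeder fibroblasts. Line, medium and plate, and against ESC also doxycycline, therefore cannot be told apart between cultures. Between 3D and 2D, the form of culture, medium and plate cannot be told apart, and in Epi against ESC doxycycline is added to these.

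The labels give plate and well but not the sorted type, so the blocks of well columns 1 to 8, 9 to 16 and 17 to 24 were named Epi, VE and ExE from markers. All 6 Epi, 7 VE and 7 ExE markers had their highest mean among the 3D blocks in the block so named. Of the ExE markers, Cdx2, Eomes and Tfap2c are also transgenes of the 5-Factor cells. Of 5 parietal endoderm markers, 3 were highest in the VE block and 2 in the ExE block. They summed to 79.7 TP10k in VE cells, beside 22.5 for the VE markers, so the name VE does not separate these endoderm types. Own markers led in every Epi cell, in all but 6 VE cells and in all but 34 ExE cells, and in the cultures in every ESC and iXEN and in all but 11 iTSC. The blocks held 982 of the kept cells and the cultures 424, with the number per group under the processing. The median number of genes per cell was 4823 to 5396 in the 3D blocks and 8537 to 9094 in the cultures, so shares of cells with a gene were read at unequal depth. Since each condition was 1 pool or culture, there was no replicate check and no test, the plates are technical splits, and intervals around shares are exact 95% Clopper-Pearson intervals that cover counting error alone.

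Igf2 spans chr7:142650766-142666816 and H19 spans chr7:142575529-142578143, both on the minus strand of GRCm38 and 72.6 kb apart. Igf2os overlaps Igf2 on the other strand, and SMART-seq2 does not mark the strand, so reads on their shared bases cannot be told apart. RefSeq places 4 Igf2 start sites in this build, which the table sums into 1 level per gene, so the start in use was not resolved. The windows around the start with the most CpG pairs and the start with the fewest are shown, with CpG pairs in capitals. CpG methylation was not measured here, so these counts say nothing about the imprint. The first holds 24 CpG pairs, more than 80.02% of 32851 RefSeq promoter windows of 300 bases, and the second holds 2, more than 14.1% of them.
Igf2, chr7:142658755-142659054, minus strand: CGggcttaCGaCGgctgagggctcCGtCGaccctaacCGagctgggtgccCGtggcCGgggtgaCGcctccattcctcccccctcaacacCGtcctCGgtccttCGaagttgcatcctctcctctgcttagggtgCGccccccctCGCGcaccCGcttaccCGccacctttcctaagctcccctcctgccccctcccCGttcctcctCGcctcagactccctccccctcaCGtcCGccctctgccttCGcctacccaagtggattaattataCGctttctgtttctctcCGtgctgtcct
Igf2, chr7:142666767-142667066, minus strand: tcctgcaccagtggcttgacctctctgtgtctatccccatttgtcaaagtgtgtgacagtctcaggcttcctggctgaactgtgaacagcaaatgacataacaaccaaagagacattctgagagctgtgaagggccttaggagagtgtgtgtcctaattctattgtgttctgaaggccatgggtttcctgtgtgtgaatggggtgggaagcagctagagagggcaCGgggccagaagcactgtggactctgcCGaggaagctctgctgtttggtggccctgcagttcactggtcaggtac

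The H19 transcript also carries Mir675. Its hairpin lies at chr7:142577064-142577147, inside the first exon of the longest H19 transcript, so reads of the gene and of the precursor cannot be told apart there. The hairpin and its mature forms are given from RefSeq (GRCm38.p6), with the seed, bases 2 to 8, in capitals.
Mir675 hairpin: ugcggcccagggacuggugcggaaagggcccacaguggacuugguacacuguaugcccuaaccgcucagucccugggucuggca
miR-675-5p: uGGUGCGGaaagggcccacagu
miR-675-3p: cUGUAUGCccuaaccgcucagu

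Igf2 was the most unevenly spread member within the embryoids. Levels are given as TP10k, the deposited length-scaled transcript abundance (TPM) of a cell rescaled to 10000, which counts transcripts per length and allows genes to be compared. In ExE cells the mean of Igf2 was 6.55, 7.86 and 5.14 TP10k on plates 3, 4 and 5, and 6.53 over all cells. In VE cells it was 0.627, 0.874 and 0.548, and 0.687 over all cells. In Epi cells it was 0.0208, 0.0123 and 0.172, and 0.0690 over all cells. The plates of the 3D blocks did not overlap.

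Igf2 was above 0 in 77.3% of ExE cells (interval 72.6 to 81.6%), in 52.4% of VE cells (46.7 to 58%) and in 8 Epi cells (2.55%, 1.11 to 4.96%). Single ExE cells ran from 0 through a median of 3.06 to 82.7 TP10k. The 36 highest ExE cells held 43.8% of the summed level, so the gene was broadly but unequally expressed in this block. It was also above 0 in 26 of the 34 cells of the ExE block in which another marker list led. By mean level Igf2 ranked 3018 among the 20999 genes in VE cells and 8972 in Epi cells.

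ExE cells had 9.51 times the Igf2 mean of VE cells, and the log2 ratio was 3.17 to 3.38 on the plates. The log2 ratio to Epi cells was 6.56 and lay between 4.90 and 9.32 on the plates. That value rests on few Epi cells: without plate 5 it was 8.77, and the highest of the 8 cells, at 13.2 TP10k, was on that plate. VE cells lay 3.32 above Epi cells on the log2 scale, and 5.51 without plate 5. One VE cell at 41.5 TP10k, in which another marker list led, also weighed on the VE mean, and the log2 ratio was 2.99 in cells led by their own markers.

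The cultures followed the same order. Igf2 had a mean of 7.43 TP10k in iTSC, 0.462 in iXEN and 0.00440 in ESC. It was above 0 in 83.7% of iTSC (76.5 to 89.4%), in 64.5% of iXEN (56 to 72.4%) and in 13 ESC (9.15%, 4.97 to 15.1%). The ExE plates lay on both sides of iTSC, with log2 ratios from -0.53 to 0.08 and -0.19 over all cells. VE cells were 0.57 above iXEN, less than the fold of 2 used for a call, with plates at 0.25 to 0.92.

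**Figure D1:**
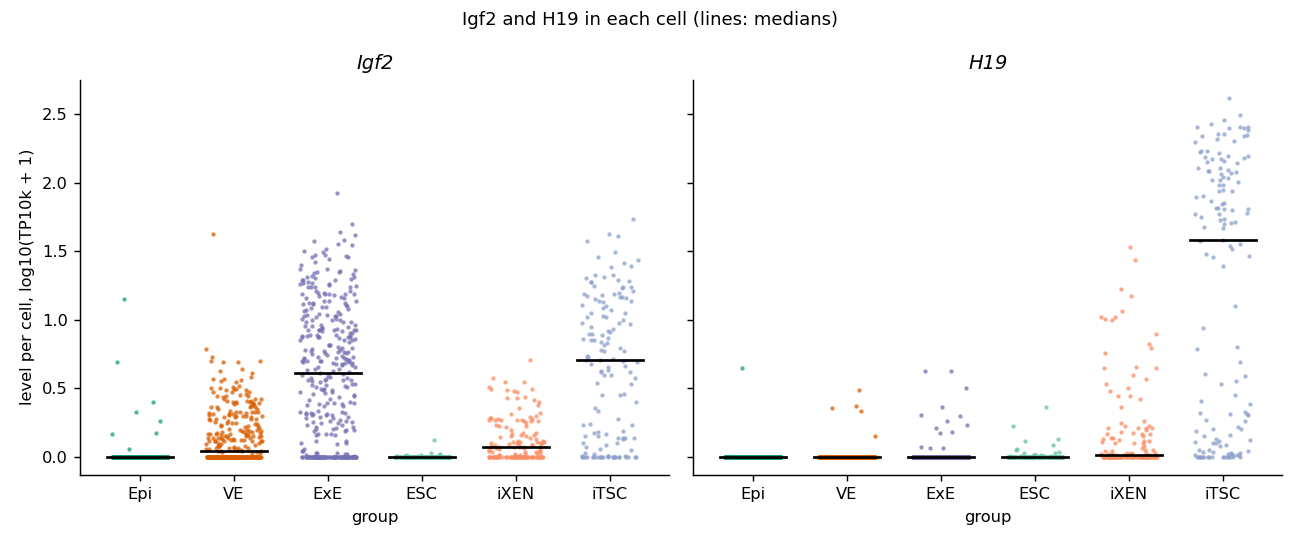
Level of Igf2 and of H19 in each kept cell, as log10(TP10k + 1), by group, where 1 point is 1 cell and lines are medians. Igf2 is spread from 0 to high levels in ExE cells and in iTSC alike (medians 3.06 and 4.12 TP10k). High H19 is seen in iTSC (median 37.1 TP10k) and, lower, in some iXEN (median 0.0283), with a median of 0 in every 3D block.

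H19 did not follow Igf2 into the embryoids. In iTSC its mean was 71.3 TP10k, rank 4 of all genes, and single cells ran from 0 through a median of 37.1 to 416 TP10k. In ExE cells the mean was 0.0377, 0.0549 and 0.0399 on plates 3, 4 and 5, and 0.0441 over all cells. The highest ExE cell reached 3.22 TP10k. The iTSC mean was 1615 times that of ExE cells, a log2 ratio of -10.66 for ExE over iTSC with plates at -10.88 to -10.34.

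A gap in the same direction was seen in the endoderm pair, but it rested on fewer cells. H19 had a mean of 1.43 TP10k in iXEN and 0.0199 in VE cells, with VE plates at 0.0141, 0.0243 and 0.0215. The log2 ratio of VE over iXEN was -6.17, with plates at -6.66 to -5.88. The 15 highest iXEN held 82.3% of the summed H19, and the iXEN median was 0.0283 TP10k, against 37.1 in iTSC. Between Epi cells (0.0109) and ESC (0.0252) both levels were near 0, and the plates fell on both sides of ESC.

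H19 was above 0 in 88.7% of iTSC (82.2 to 93.4%) and 51.1% of iXEN (42.5 to 59.6%). It was above 0 in 14 ExE cells (3.97%, 2.18 to 6.56%), 5 VE cells (1.59%, 0.517 to 3.67%) and 1 Epi cell (0.318%, 0.00806 to 1.76%). ESC, which had the most genes per cell, had H19 in 20 cells (14.1%), with a median of 0.0454 TP10k in those cells. Among cells with 6000 to 8500 genes, a range shared by 3D and 2D, the share was 6.19% of ExE cells and 88.7% of iTSC.

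Mir675 was at 0 in every 3D cell and in every ESC. It was above 0 in 62 iTSC (43.97%), with a mean of 15.1 TP10k, and in 12 iXEN (8.51%), with a mean of 0.531 TP10k. Each of these cells also had H19. The 6 markers of fibroblasts, the cell type of the feeders, had a summed mean of 0.0377 TP10k in iTSC, with 0.621 in the highest cell. This mean was 0.0470 in Epi, 0.0280 in VE and 0.0108 in ExE cells, and 0.0276 in ESC and 0.0318 in iXEN. In 81 iTSC all 6 were at 0. In iTSC with H19 at or above its median the sum was 0.0389, and in those below it 0.0365.

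**Figure D2:**
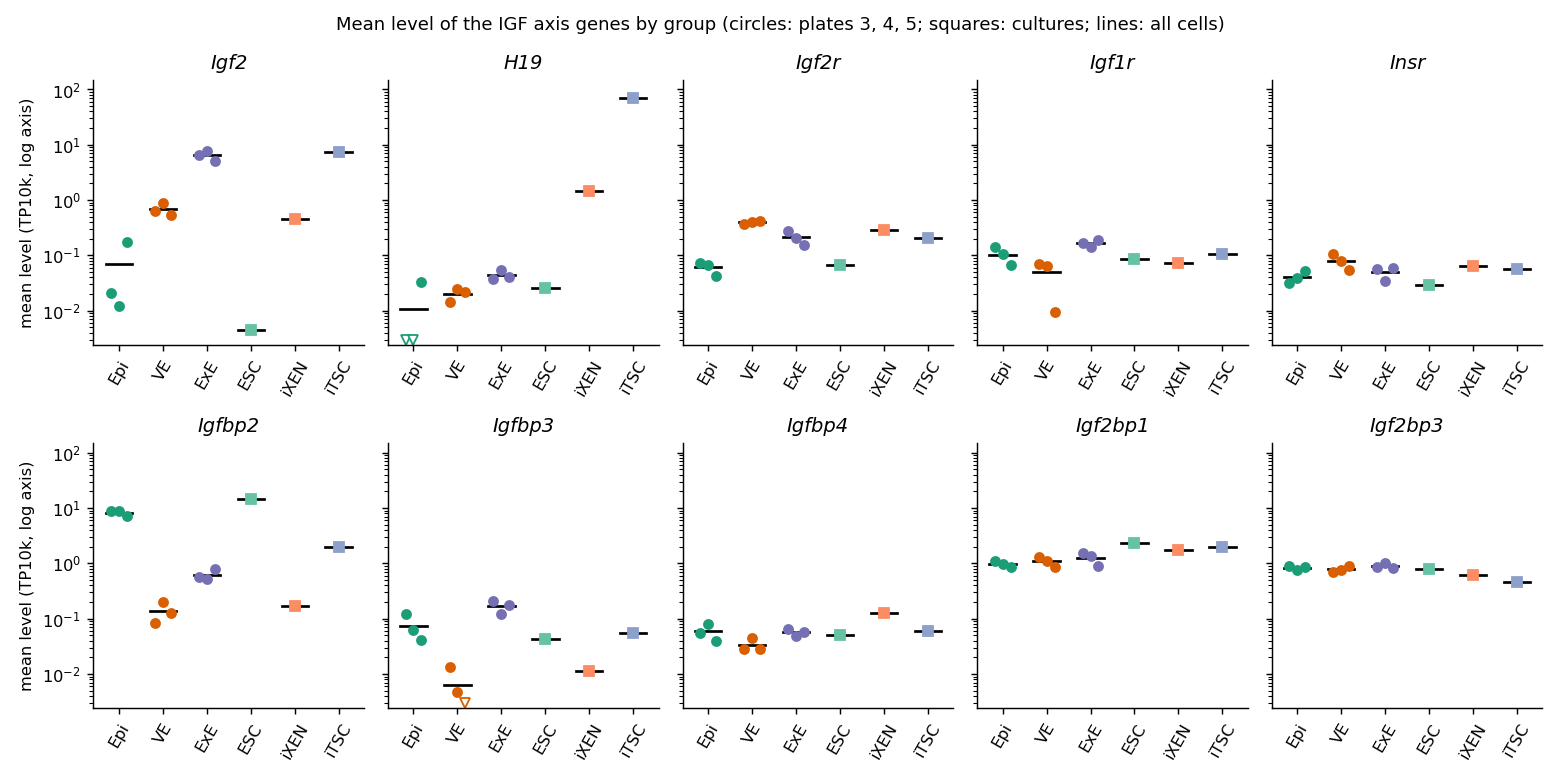
Mean level of each member in TP10k on a log axis, by group, with circles for plates 3, 4 and 5, squares for cultures, lines for all cells and open triangles at the foot for plates at 0. The groups differ most in Igf2, H19 and Igfbp2, while Igf2bp1 and Igf2bp3 stay between 0.464 and 2.31 TP10k in all 6 groups.

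Igf2 and H19 were then read in the same cells. In ExE cells 14 had both transcripts and 80 had neither, none had H19 alone, and the rest (73.4%) had Igf2 alone. Both were thus found in 3.97% of cells (2.18 to 6.56%), beside 3.07% given by the product of the shares. All 14 ExE cells with H19 had Igf2, and their mean Igf2 was 11.7 TP10k, against 6.31 in cells without H19. That difference turned with the plate: cells with H19 had 18.04 against 5.95 on plate 3, 5.10 against 7.99 on plate 4 and 10.02 against 5.01 on plate 5.

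The share with both was 1.69%, 4.24% and 5.98% when ExE cells were split into 3 equal parts by number of genes, from the fewest to the most. The same parts had Igf2 in 66.1%, 81.4% and 84.6% of cells, so both shares moved with the number of genes. In VE cells 5 had both, 50.8% had Igf2 alone and 47.6% had neither. No Epi cell had both, for which the exact interval reaches 1.17% and a limit of 3 cells 0.955%.

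In iXEN 49 cells had both, 42 had Igf2 alone, 23 had H19 alone and 27 had neither. The share with both was 34.8% (26.9 to 43.2%), beside a product of 33%. Many of these values were low, with a median H19 of 0.474 TP10k in the iXEN that had it. Across all iXEN the levels of the pair were barely related, with a Spearman correlation of 0.10. Above 1 TP10k, a limit chosen after the values were seen, 7 iXEN had both, 12 Igf2 alone and 18 H19 alone. Of the iXEN with H19 above 10 TP10k, 4 had Igf2 above 1 and 1 did not. These cells are few, and a relation at higher levels was not tested. ESC had 12 cells with Igf2 alone, 19 with H19 alone and 1 with both.

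**Figure D3:**
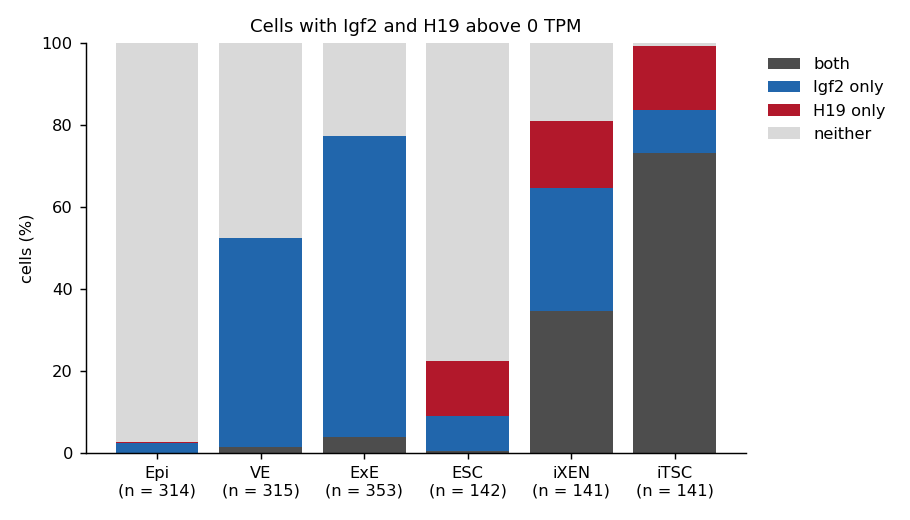
Share of cells in percent with both Igf2 and H19 above 0 TPM, with 1 of them or with neither, by group, with the number of cells below each bar. Igf2 without H19 fills most of the ExE bar and about as much of the VE bar as neither gene, whereas both genes fill 73.05% of the iTSC bar.

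In iTSC most cells had both transcripts above 0, but at opposed levels. There 15 cells had Igf2 alone, 22 had H19 alone and 1 had neither. The share with both was 73.05% (64.9 to 80.2%), beside a product of 74.2%. With each gene above 0 in most cells, that share could hardly fall below the product, so the 2 values cannot show whether the transcripts avoided each other. Above 1 TP10k, a limit chosen after the values were seen, 48 cells had both, 43 Igf2 alone, 48 H19 alone and 2 neither. By level, however, the pair ran against each other, with a Spearman correlation of -0.66 across the cells of 1 culture, and -0.66 again in the cells with both. Cells with H19 had a mean Igf2 of 6.74 TP10k and those without it 12.9. Cells with Igf2 had a mean H19 of 52.8 TP10k and those without it 165.7.

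Some iTSC lay at opposite ends of the levels and others between them. In windows chosen after the values were seen, 43 cells had H19 above 50 and Igf2 at 1 TP10k or below, and 35 had Igf2 above 5 and H19 at 1 or below. Another 13 cells had H19 above 50 with Igf2 above 5, and 2 cells had both at 1 or below. In cells with both, the level of H19 over that of Igf2 had quartiles of 0.0567 and 58.9, with a median of 4.84. No ExE cell had H19 above 10 TP10k, and 37.7% had Igf2 above 5 with H19 at 1 or below.

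Depth, plate position and lineage markers were set beside this relation. Neither gene ran with the number of genes per cell in iTSC, with a Spearman correlation of 0.07 for Igf2 and -0.06 for H19. iTSC with H19 at or above the median had a median of 8464 genes and those below it 8662. In the 6 plate rows that held these cells, with 22 to 24 cells each, the correlation of Igf2 with H19 was between -0.88 and -0.37. Of 22 marker genes of any lineage found in at least 25% of iTSC, the correlations with H19 ran from -0.30 for Plet1 to 0.17 for Amn.

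**Figure D4:**
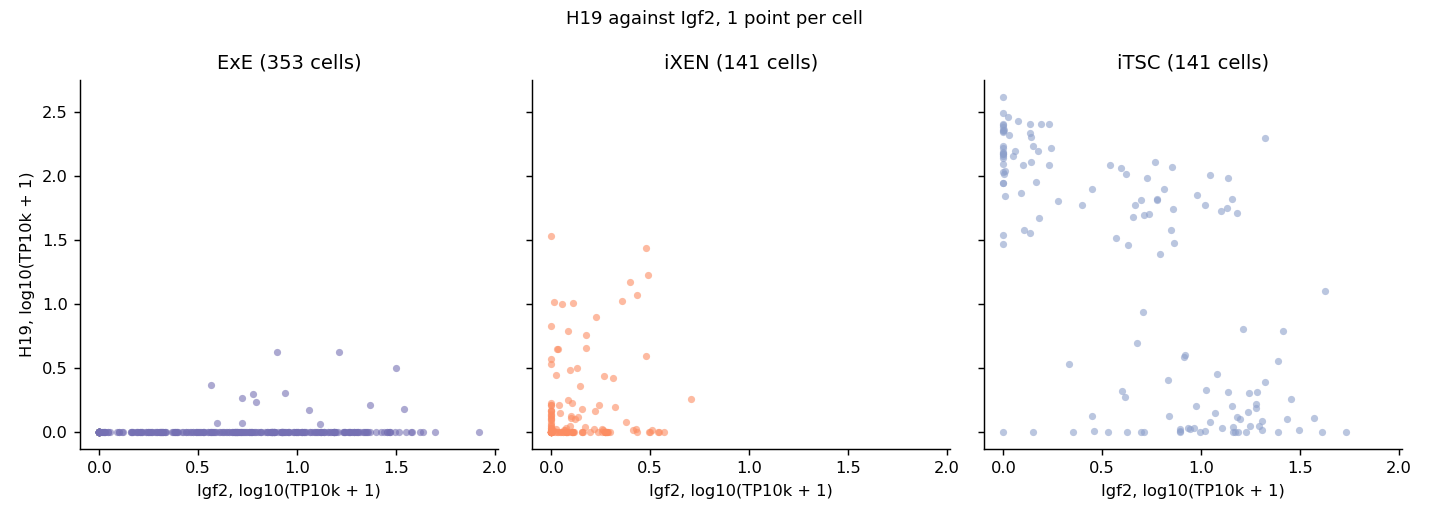
H19 against Igf2 in single cells of the ExE block, iXEN and iTSC, both as log10(TP10k + 1), with 1 point per cell. ExE cells lie along the foot with H19 near 0 at any Igf2, whereas iTSC include 43 cells with H19 above 50 and Igf2 at 1 TP10k or below (upper left) and 35 with Igf2 above 5 and H19 at 1 or below (lower right), with a Spearman correlation of -0.66.

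Genes that ran with H19 in iTSC were sought among the 8334 others present in at least 50% of the cells. The 5 closest were Mest at 0.42, Mrpl23 at 0.41, Peg3 at 0.40, Fth1 at 0.34 and Mrpl23-ps1 at 0.33, all lower in size than the correlation with Igf2. Mest and Peg3 are imprinted genes read from the paternal copy, and Mrpl23 is a neighbour of H19 whose reads may be shared with its pseudogene. In the lists of the pathway and the loci, Grb10, an imprinted adaptor of the insulin receptor, had the lowest correlation with H19, at -0.45. Airn, the non-coding RNA read antisense to Igf2r, was at 0.31 and Igf2r itself at -0.22.

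In ExE cells the 5 genes that ran closest with Igf2, of 5029 present in at least 50% of cells, were Hat1, Hsp90aa1, Bex1, Arpc1b and Slc2a1. Their Spearman correlations over all cells of the block were 0.56, 0.52, 0.51, 0.50 and 0.49. Hat1 is a histone acetyltransferase and Slc2a1 a glucose transporter. Across the means of 12 plates and cultures, Adam9, Unc5b, Cers2, Gatc and Nfkbiz were most like Igf2, with Pearson correlations of log2 levels from 0.95 to 0.98. Those most like H19 were Mir675, Synpo2l, Myoz1, Plekha2 and Thbs1, from 0.91 to 0.97. These 12 points share plates, media and lineages, and with a larger pseudocount 3 of the 5 genes were again listed for each.

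The ExE block contains cells with and without trophoblast stem cell genes, and Igf2 was present in both. Cells were split by Cdx2, Elf5, Eomes, Tfap2c, Esrrb and Bmp4, some of which are also transgenes. With at least 4 of these genes, 86.9% of cells had Igf2, at a mean of 6.75 and a median of 5.14 TP10k. With 2 or 3, 70.6% had it, at a mean of 5.62 and a median of 1.45. With at most 1, 58 of 82 cells (70.7%) had it, at a mean of 7.55 and a median of 2.27. The highest mean thus went with a lower median. ExE markers led in 98.6% of cells with at least 4 of these genes, but in 67.1% with at most 1. H19 was seen in 10 cells with at least 4 (6.90%) and in 1 cell with at most 1 (1.22%). These sets had medians of 5935 and 4785 genes per cell.

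Of the receptors, Igf2r was lower in Epi cells than in both extraembryonic blocks. Its mean was 0.372, 0.407 and 0.414 TP10k on the VE plates, 0.278, 0.205 and 0.154 on the ExE plates, and 0.0731, 0.0676 and 0.0423 on the Epi plates, with no overlap between blocks. It was above 0 in 95.9% of VE, 81.3% of ExE and 43.3% of Epi cells. VE cells had 6.52 times and ExE cells 3.51 times the Epi mean, while VE cells had 1.86 times the ExE mean, under a fold of 2. Cultures had 0.291 in iXEN, 0.205 in iTSC and 0.0678 in ESC, so each was within a fold of 2 of its 3D counterpart.

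Airn, which overlaps Igf2r on the other strand, was also lowest in Epi cells and ESC. Its mean was 0.0136 TP10k in Epi, 0.117 in VE and 0.119 in ExE cells, and 0.0260 in ESC, 0.173 in iXEN and 0.181 in iTSC. Here too reads on shared bases cannot be assigned by strand. M6pr, the smaller mannose 6-phosphate receptor, was level at 0.949 to 1.46 TP10k in all groups.

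Igf1r, the main signalling receptor for IGFs, was low throughout. Its mean was 0.168, 0.140 and 0.187 TP10k on the ExE plates, 0.141, 0.104 and 0.0674 on the Epi plates, and 0.0707, 0.0644 and 0.00962 on the VE plates. ExE cells had 3.31 times the VE mean, whereas Epi plates met both other blocks. VE cells had 0.481 of the Epi mean, but without plate 5 the log2 ratio of -1.05 became -0.85 and no longer passed a fold of 2. Igf2 and Igf1r were seen together in 37.1% of ExE cells, beside a product of 39.9%.

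Insr, the insulin receptor gene, was at 0.0807 TP10k in VE, 0.0510 in ExE and 0.0409 in Epi cells, with overlapping plates and no call among the 3D blocks. It was at 0.0640 in iXEN, 0.0571 in iTSC and 0.0285 in ESC. iXEN had 2.24 times the ESC mean. iTSC had 2.00 times, a value at the edge of the call that fell under a fold of 2 without rescaling to TP10k, at a log2 ratio of 0.88.

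Among the binding proteins, which hold IGFs outside the cell, Igfbp2 was highest where Igf2 was lowest, in Epi cells and ESC. Like Igf2, it was higher in ExE than in VE cells and higher in iTSC than in iXEN. Its mean was 8.97, 8.85 and 7.09 TP10k on the Epi plates, 0.569, 0.533 and 0.787 on the ExE plates, and 0.0840, 0.204 and 0.127 on the VE plates. It was above 0 in 96.8% of Epi, 22.4% of ExE and 10.8% of VE cells. The log2 ratio to Epi cells was -5.91 for VE cells and -3.72 for ExE cells. Igfbp2 thus marked nearly every cell of the block in which Igf2 was nearly absent.

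ESC had the highest Igfbp2, at a mean of 14.3 TP10k and in every cell. The mean was 1.94 in iTSC and 0.172 in iXEN. The ESC mean was above every Epi plate, within a fold of 2 over all cells. iTSC, 87.2% of which had the transcript, exceeded ExE cells by 3.09 times, and all 3 plates were below the culture.

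Igfbp3 was highest in ExE cells. Its mean was 0.206, 0.121 and 0.177 TP10k on the ExE plates, 0.120, 0.0617 and 0.0420 on the Epi plates, and 0.0136, 0.00471 and 0 on the VE plates. It was above 0 in 91 ExE cells (25.8%) and in 6 VE cells (1.90%). The log2 ratio of ExE over Epi was 1.19, and 0.87 without plate 5 or 0.72 with at least 4000 genes per cell, both under a fold of 2. ExE cells had 3.09 times the mean of iTSC, at 0.0545, so Igfbp3 was higher in the 3D cells while H19 and Igfbp2 were lower.

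Igfbp4 was at 0.0339 to 0.0588 TP10k in the 3D blocks, with no call among them. It was highest in iXEN, at 0.127, against 0.0612 in iTSC and 0.0513 in ESC. VE cells had 0.267 of the iXEN mean, with all 3 plates below the culture.

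The RNA-binding proteins IGF2BP1 and IGF2BP3 bind transcripts, that of Igf2 among them. Igf2bp1 was found in 96.8% to 98.6% of cells of the 3D blocks and in every cell of the cultures. Its mean was 0.970 in Epi, 1.12 in VE and 1.26 TP10k in ExE cells, with overlapping plates, and 2.31 in ESC, 1.72 in iXEN and 1.94 in iTSC. Epi cells had 0.420 of the ESC mean, the 1 call of this gene. Among cells with 6000 to 8500 genes the log2 ratio of -1.25 became -0.81, under a fold of 2.

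Igf2bp3 was at 0.840 TP10k in Epi, 0.781 in VE and 0.903 in ExE cells and was called in no comparison. The ExE mean was 1.95 times that of iTSC, at 0.464, with all plates above the culture. Igf2bp1 and Igf2bp3 were seen together in 91.5% of ExE cells, beside a product of 91.6%.

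**Figure D5:**
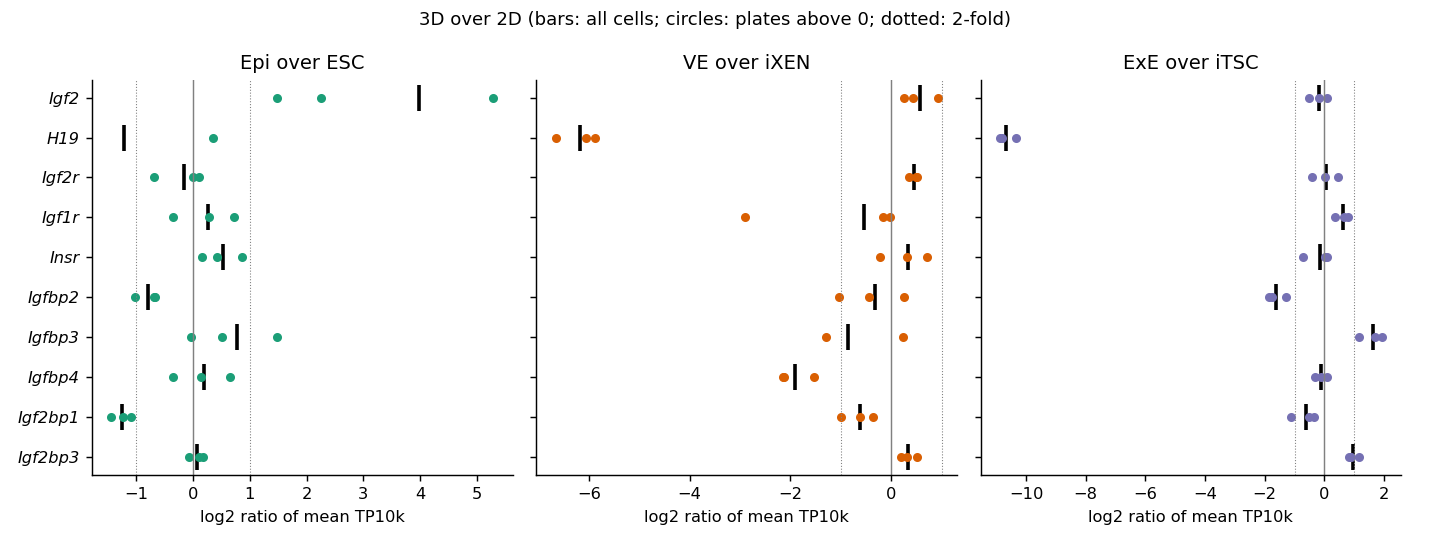
Log2 ratio of mean TP10k of each 3D block over its culture, with bars for all cells, circles for plates above 0 and dotted lines at a fold of 2. H19 lies far to the left for VE over iXEN (-6.17) and for ExE over iTSC (-10.66), while Igf2 lies near 0 in the latter (-0.19).

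Calls were then counted over all members. A gene was tested in a comparison if it was above 0 in at least 10% of cells of either group, and called if the means differed by a fold of 2 or more in the same direction on plates 3, 4 and 5. VE against Epi called 5 of 9 tested members, with 32.6% of 10662 genes called. ExE against Epi called 4 of 9, with 24.5% of 10886 genes called. ExE against VE called 4 of 9, all higher in ExE cells, with 24.3% of 10836 genes called. H19 was not tested in these, as it was above 0 in too few cells, and the comparisons share their groups.

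Between the 3D blocks and their cultures fewer members were called. Epi against ESC called 1 of 9, Igf2bp1, with 20.3% of genes called, and 3 without plate 5. VE against iXEN called 2 of 9, H19 and Igfbp4, with 13.3% of genes called. ExE against iTSC called 3 of 10, H19, Igfbp2 and Igfbp3, with 24.8% of genes called. With 9 or 10 members tested, 1 call more or fewer would move each of these shares across its background. Igf2 was not tested in Epi against ESC, being above 0 in under 10% of the cells of each of these groups.

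The cultures, which have no plates to compare, called more. iTSC against ESC called 5 of 10, with 33.5% of genes called, and iXEN against ESC called 7 of 10, with 39.5% of genes called. iTSC against iXEN called 5 of 10, with 33.3% of genes called. Igf2, H19, Igf2r and Insr were higher in both extraembryonic cultures than in ESC, and Igfbp2 was lower in both.

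Of 29 further genes of IGF and insulin signalling, 15 were tested in VE against Epi cells, of which 5 were higher and 1 lower, or 40% beside 32.6% of all genes called. The median log2 ratio of the 15 was 0.46, beside -0.07 over all tested genes. Igf1, the sister growth factor of Igf2, had its highest mean in VE cells, at 0.377 TP10k against 0.0275 in Epi and 0.0103 in ExE cells. The VE block thus had transcripts of both growth factors, with Igf2 at a mean of 0.687, but cells with both were not counted. Htra1, a protease that can cut binding proteins, was at 3.75 in VE, 0.511 in ExE and 0.0330 in Epi cells. Grb10 was highest in Epi cells, at 0.802 against 0.207 in ExE and 0.0392 in VE cells.

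In ExE against Epi cells 16 of the 29 were tested, 6 being higher and 1 lower, or 43.8% beside 24.5% of all genes called, with a median log2 ratio of 0.70 beside 0.10 over all tested genes. Akt1, a kinase below the receptors, was among those higher, at 0.529 against 0.195 TP10k. In ExE against iTSC 17 were tested, with Igfbp5 higher and Irs2, Pappa2 and Htra1 lower, or 23.5% beside 24.8% of all genes, and a median of -0.15 beside 0.02. Htra1 was at 3.55 TP10k in iTSC, near its level in VE cells and iXEN.

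The neighbours of the imprinted pair showed no gap like that of H19. Mrpl23 was at 1.10 TP10k in ExE cells and 1.30 in iTSC, and Lsp1 and Tnnt3 were at 0.0877 and 0.0965 in ExE cells against 0.0677 and 0.176 in iTSC. Of 4 locus genes tested in ExE against iTSC, Mir675 alone was called. Ins2, next to Igf2, was at 0.0164 TP10k or below in all groups.

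Of 12 regulators of imprints or of IGF transcripts, all tested in ExE against iTSC, Hmga2 was higher in ExE cells and Zfp57, Dppa3 and Plagl1 were lower. These 4 are 33.3% of the list, beside 24.8% of all genes called. Zfp57, which guards imprints in early cells, was at 0.744 TP10k in ExE cells against 2.19 in iTSC, and at 2.26 in Epi cells. Plagl1, an imprinted factor that acts on the Igf2 and H19 locus, was at 0.0970 in ExE cells against 0.363 in iTSC. Ctcf, whose protein insulates Igf2 from the shared enhancers, was level, at 0.580 to 0.892 TP10k in all groups.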

How the data were processed

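Single cells of RtL-embryoids and of 3 cultures were measured by SMART-seq2. The deposited table holds TPM values, a transcript abundance scaled by length and library, that the authors made with kallisto against GRCm38 (Gencode vM16) and collapsed to genes through tximport. The study's methods name a filter on mitochondrial, ribosomal and pseudogenes, although Mrpl23-ps1 is in the table. The submitters' notes name bcl2fastq 2.20, kallisto and Seurat. TPM keep no read depth, so no count model or thinning could be applied, and genes above 0 stand for depth.

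Of 1931 wells, 39 held no value. A minimum of 2500 genes above 0 per cell left 314 Epi, 315 VE, 353 ExE, 142 ESC, 141 iXEN and 141 iTSC. Each cell was rescaled to 10000 (TP10k) with numpy 2.4.6, pandas 2.3.3 and scipy 1.17.1. Wells carry unique names, no doublet caller was run, and no column was left out. Groups were compared by ratios of mean TP10k, called past a fold of 2 as described, and never tested, since each condition is 1 sample. The code that makes the call was checked on simulated data. A gene at 0 in all cells allows a share of up to 3 cells of the total. Intervals cover counting error only.

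The members and the gene lists were chosen with earlier results of these data known. Named genes were the members, the listed pathway, locus and regulator genes, and the 5 genes most like Igf2 and H19 by log2(mean TP10k + 0.01) over 12 plates and cultures or by rank correlation across cells. Igf2os, Gm49394 and Nctc1 were not analysed here. Sequences are from RefSeq (GRCm38.p6), where 7 members had a promoter window, and positions from Gencode vM21 on the same build. Alternatives were the minimum of genes, the limit of detection, the scale, the cells included, the fold and each plate left out.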

Additional observations from a re-analysis of the deposited data

How the results depend on the processing

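None of the 36 called ratios turned in direction under any alternative, and 10 alternative values fell under a fold of 2, in Igf1r, Igfbp3, Igf2bp1, Igf2r, Insr and Igfbp4. The log2 ratio of H19 for ExE over iTSC was -9.20 from means of ln(TP10k + 1), and between -10.84 and -10.55 with each plate left out. Leaving out the top 5% of cells put H19 at 0 in ExE cells, so no ratio was given. The share of ExE cells with Igf2 was 84.1% among cells with 6000 to 8500 genes. At a fold of 4, the members called were 2 in ExE against Epi, 0 in Epi against ESC, 1 in VE against iXEN, 1 in ExE against iTSC, 3 in iTSC against ESC and 4 in iXEN against ESC. Alternatives added after the data were seen gave 3 in iTSC against ESC among cells with 6000 to 8500 genes, and 1 to 3 in Epi against ESC with each plate left out, 3 being without plate 5. That range of genes left no Epi cell on plate 5, so no count could be given for comparisons with Epi. The correlation of Igf2 with H19 in iTSC was between -0.73 and -0.66 in 5 alternatives. The causes of these changes were not tested. Without molecular identifiers or read counts, no counting error can be given for low levels such as those of Igf1r, Insr and Igfbp4, and a gene at 0 in a 3D cell may lie below detection.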
